A study of Mus musculus with 2 samples.

Results

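The genes described here are 10 genes of the ERK pathway. Feedback inhibitors among them are the dual-specificity phosphatase genes Dusp4, Dusp5 and Dusp6 and the Sprouty genes Spry1, Spry2 and Spry4. So are the SPRED genes Spred1 and Spred2. The others are the ETS transcription factor genes Etv4 and Etv5, which carry ERK output. For short, all 10 genes are called feedback genes below. They were chosen by symbol from the deposited table of 14694 genes, and 10 of 10 were found, each in a single row. All 10 passed the filter of at least 50 reads over both libraries, which 10921 genes of the table passed.

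The study concerns pulmonary fibrosis after radiation and the turning of fibroblasts into myofibroblasts. Its labels give 1 library called IR and 1 called NC, both with mouse lung fibroblasts as their source and both carrying the number 4. The labels spell out neither group name and give no strain, genotype, dose or time. Their protocol describes a preparation of vesicles from culture supernatant, although the source is given as fibroblasts. Whether the sequenced RNA came from cells or from vesicles was not settled here, so the levels below may be those of vesicle RNA. With 1 library in each group no test is possible, no p-value is given, and each statement is about these 2 libraries and not about a treatment.

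ERK is the last kinase of the cascade that carries growth factor signals from receptor tyrosine kinases through RAS, RAF and MEK. Active ERK switches on genes whose products act back on the cascade. The DUSP phosphatases remove the activating phosphates from MAP kinases, with DUSP6 acting in the cytoplasm and DUSP4 and DUSP5 in the nucleus, and DUSP5 and DUSP6 prefer ERK. Sprouty and SPRED proteins act further up, around RAS and RAF, and SPRED proteins bring the RAS inhibitor neurofibromin to the membrane. ETV4 and ETV5 belong to the PEA3 group of ETS factors, which are induced by fibroblast growth factor signals and carry the ERK output on to further genes. The level of these mRNAs is often read as a trace of ERK activity.

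The IR library held 35219511 counted reads and the NC library 36084512. Of 16 fibroblast markers 12 had reads. They summed to 5673 CPM (read counts set to a common library size) in IR and 6488 in NC. The 10 epithelial markers, of which 4 are in the deposited data, summed to 1.03 and 1.02 CPM. Most fibroblast marker reads came from Vim (76565 in IR and 66290 in NC) and Fn1 (49419 and 90065). Col1a1 had 273 and 688 reads. Vim, S100a4, Col5a1, Fbn1 and Dcn were higher in IR, and the other fibroblast markers with reads were lower. The markers Lum, Postn, Tcf21 and Thy1 are not listed in the table, and Dcn (decorin) had 30 and 7 reads, so part of the usual lung fibroblast profile was not seen here. Endothelial markers summed to 4.70 and 4.36 CPM. Immune markers summed to 83.5 and 60.3 CPM, of which Cd68 gave 99.7% and 99.6%, with Adgre1 and Cd3e not listed and Ptprc at 4 and 0 reads. Mesothelial markers summed to 99.7 and 199 CPM, nearly all from Msln, with Wt1 and Lrrn4 not listed. The part of these differences in the results below was not tested. In such bulk RNA, whatever its origin, a smaller contribution of 1 cell type and less RNA of a gene per cell cannot be told apart.

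The promoters of Dusp5 and Dusp6 are shown because these phosphatases lay at opposite ends of the group in the comparison of the libraries. RefSeq promoter windows on GRCm38.p6 were at hand for 7 of the 10 genes, as 8 windows. Dusp4, Spry4 and Etv4 had no window. The promoters of Dusp4 and Etv4, which like Dusp5 were higher in IR, were thus not searched. The sequences run 5′ to 3′ on the plus strand and end just before the first annotated start of the gene. Capitals mark matches to the CArG box, the binding motif of serum response factor, a transcription factor that works with ERK-activated ETS partners at growth factor-induced genes. The Dusp5 sequence is chr19:53528895-53529108 and the Dusp6 sequence is chr10:99262981-99263230.
Dusp5: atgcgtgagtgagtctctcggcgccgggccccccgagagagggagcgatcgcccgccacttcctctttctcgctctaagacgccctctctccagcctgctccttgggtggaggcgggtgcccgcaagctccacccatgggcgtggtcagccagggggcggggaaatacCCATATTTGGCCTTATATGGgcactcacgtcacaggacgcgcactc
Dusp6: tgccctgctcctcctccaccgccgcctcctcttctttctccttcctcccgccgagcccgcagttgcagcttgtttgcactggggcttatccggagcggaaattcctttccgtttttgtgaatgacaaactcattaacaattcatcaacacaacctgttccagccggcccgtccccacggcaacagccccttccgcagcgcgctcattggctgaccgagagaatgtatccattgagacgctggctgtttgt

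The Dusp5 window held 2 CArG boxes that abut each other, CCATATTTGG at chr19:53529063-53529072 and CCTTATATGG at chr19:53529073-53529082. The first begins 82 bases before the RefSeq start of Dusp5 and the second ends 63 bases before it. Within the 250 bases before the start, 1.47% of the 32851 RefSeq windows held at least 1 CArG box on either strand, and 6 windows (0.0183%) held at least 2. The other 7 windows of the group, for Dusp6, Etv5 (2 windows), Spred1, Spred2, Spry1 and Spry2, held none. None of the 8 windows held the ETS motif CCGGAA (12.03% of all windows) or its longer form CCGGAAGT (2.88%). Likewise none held the cyclic AMP response element TGACGTCA (1.55%), the AP-1 motif TGANTCA (6.75%) or the TATA motif TATAAA (12.4%), each searched on both strands. Every match to CCGGAAGT is also a match to CCGGAA. Only these exact letters were searched, so other forms of an ETS site may be present. The shorter core GGAA, read on either strand, occurs in both printed sequences and was not counted. The windows had a GC content of 56.0% (Spred2) to 71.2% (the first Etv5 window). A match to a motif describes the letters of the window and shows no binding.

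Between the libraries the 10 genes did not move together. Dusp5, Etv4 and Dusp4 were higher in the IR library, Dusp6, Spred1, Etv5 and Spry2 were lower, and the counting intervals of Spry1, Spry4 and Spred2 held a ratio of 1. Summed over the 10 genes the libraries were level, with 24509 reads for IR, equal to 703 CPM (95% Poisson interval 694 to 711), and 25725 reads for NC, equal to 706 CPM (698 to 715). Intervals here and below cover counting error only.

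No member reached the 2-fold limit in either direction, which 1.6% of the 10921 genes compared passed as higher and 1.82% as lower. At 1.5-fold Dusp5 alone of the group was called higher and none lower, against 6.09% and 6.9% of all genes. Counting intervals lay above a ratio of 1 for 3 of the 10 genes and below it for 4, against 31.2% and 32.4% of all genes, so these counts are near the background. At this depth the interval excludes 1 for most well-covered genes: it did so for 74.3% of the 6463 genes with at least 1000 reads, and for 7 of the 9 members with that many. The median log2 ratio of IR over NC was -0.18 over the 10 genes (second lowest to second highest member -0.41 to 0.31) and -0.0069 over all genes compared.

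**Figure D1:**
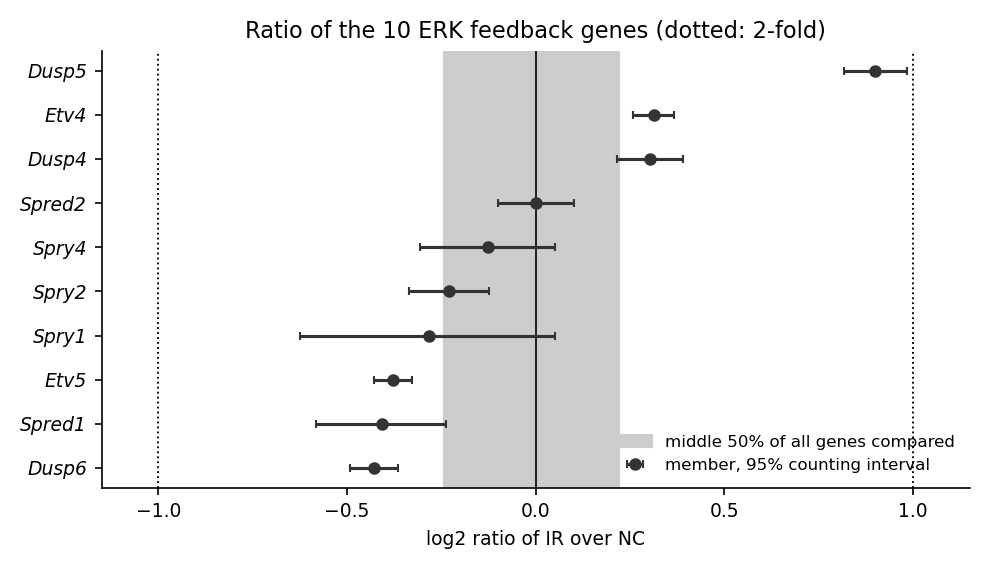
Log2 ratio of IR over NC (x axis) for each of the 10 genes, with 95% counting intervals as bars, 1 library per group; the grey band is the middle 50% of all 10921 genes compared (-0.24 to 0.22) and dotted lines mark 2-fold. Dusp5 stands furthest to the right at 0.90, and Dusp6 furthest to the left at -0.43.

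Among the phosphatases the nuclear Dusp5 and the cytoplasmic Dusp6 differed in opposite directions. Dusp5 (chr19:53529109-53542431, plus strand) had 3260 reads in IR and 1823 in NC, or 93.4 CPM (90.3 to 96.7) and 50.04 CPM (47.8 to 52.4). This is a log2 ratio of 0.90 (interval 0.82 to 0.98), or 1.87-fold more in IR. Dusp5 was by this measure the most changed of the 10 genes: it ranked 250 from the top among the 10921 genes compared, and of the 6463 genes with at least 1000 reads 41 had a higher ratio. Part of the Dusp5 signal is uncertain, because 22.1% of its exon sequence overlaps the antisense gene AC137853.2 and the strand setting of the counting is not given in the sources used here.

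Dusp6 (chr10:99263231-99267489, plus strand), the cytoplasmic ERK phosphatase, had 3475 reads in IR and 4885 in NC, or 99.6 CPM (96.3 to 103) and 134 CPM (130 to 138). Its log2 ratio was -0.43 (interval -0.49 to -0.37), so that NC held 1.35-fold more. Dusp6 overlaps no other annotated exon and shares no 50-base word with another gene's transcripts. Dusp4 (chr8:34807297-34819894, plus strand), a nuclear phosphatase that also acts on the stress kinase JNK, had 2356 and 1995 reads, or 67.5 and 54.8 CPM. Dusp4 sided with Dusp5 at a smaller size, with a log2 ratio of 0.30 (interval 0.22 to 0.39).

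These opposite differences changed the make-up of the phosphatase reads. Dusp6 supplied 56.1% of the reads of the 3 phosphatase genes in NC (95% Clopper-Pearson interval 55.1 to 57.2) and 38.2% in IR (37.2 to 39.2). Dusp5 supplied 20.9% in NC (20.1 to 21.8) and 35.9% in IR (34.9 to 36.9). There were thus 0.373 Dusp5 reads for each Dusp6 read in NC and 0.938 in IR, a 2.51-fold change of their ratio (interval 2.34 to 2.70). Such a ratio within a library does not depend on how the libraries are scaled to each other. The sum of the 3 genes differed far less, at 261 CPM for the IR library and 239 for NC (log2 ratio 0.13, interval 0.08 to 0.17).

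**Figure D2:**
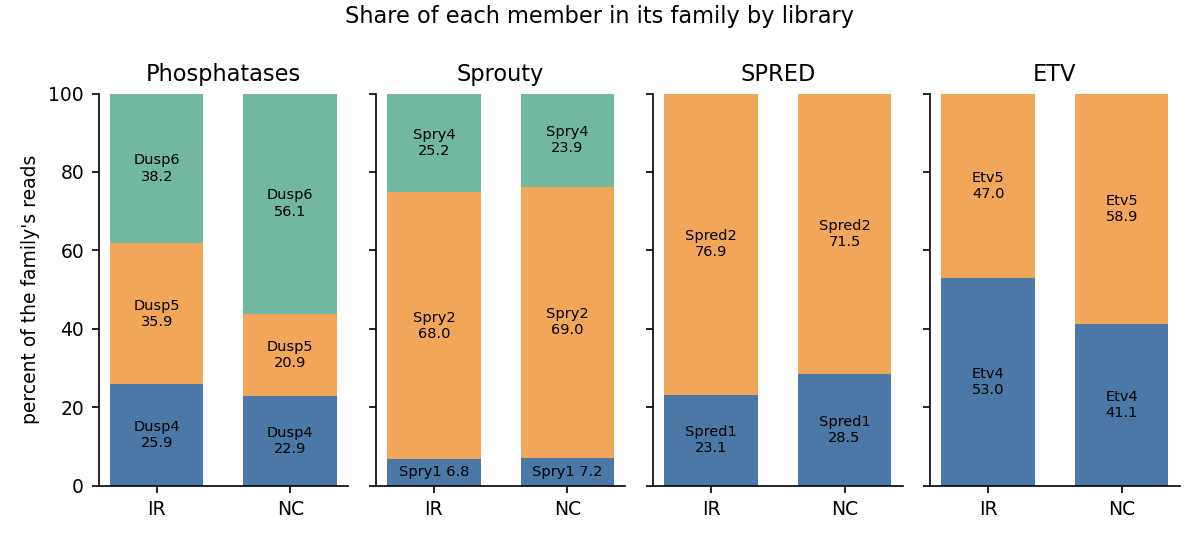
Percent of each family's reads (y axis, from 0 to 100) supplied by each member in the IR and the NC library, 1 library each, for the phosphatases, Sprouty, SPRED and ETV genes. Dusp5 goes from 20.9% in NC to 35.9% in IR and Etv4 from 41.1% to 53.0%, while the 3 Sprouty genes keep nearly the same shares.

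Etv4 and Etv5, close relatives within the PEA3 group, also went opposite ways. Etv4 (chr11:101769742-101785371, minus strand) had 6044 reads in IR and 5080 in NC, or 173 CPM (169 to 178) and 139 CPM (136 to 143). Etv5 (chr16:22381309-22439719, minus strand) had 5360 and 7272 reads, or 154 CPM (150 to 158) and 199.6 CPM (195 to 204). Etv4 was thus higher in IR, with a log2 ratio of 0.31 (interval 0.26 to 0.37), and Etv5 lower, with one of -0.38 (interval -0.43 to -0.33). Etv5 was the more abundant of the pair in NC and Etv4 in IR: the Etv4 to Etv5 read ratio was 0.699 in NC and 1.13 in IR, a 1.61-fold change (interval 1.53 to 1.70). Summed, the pair reached 327 CPM for IR and 339 for NC (log2 ratio -0.05, interval -0.09 to -0.02). Of the 50-base words of Etv5, 24.5% also occur in Gm4798, annotated as a processed pseudogene, so the count of Etv5 is uncertain to that extent. Etv4 shared none.

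The Sprouty genes, inhibitors induced by growth factors, had ratios below 1 in each case but small differences. Spry2 had 1320 reads in IR and 1616 in NC, or 37.8 CPM (35.8 to 39.9) and 44.4 CPM (42.2 to 46.6), a log2 ratio of -0.23 (interval -0.34 to -0.12). Spry4 had 490 and 559 reads, or 14.0 and 15.3 CPM, with a log2 ratio of -0.13 (interval -0.31 to 0.05). Spry1 was the scarcest of the group, with 132 and 168 reads, or 3.78 and 4.61 CPM (log2 ratio -0.28, interval -0.63 to 0.05). No difference beyond counting error was therefore detected for Spry4 or Spry1 at this depth. For Spry1 24.4% of the exon sequence also overlaps the gene Gm42922 on the other strand. Summed, the 3 genes had 55.7 CPM (53.2 to 58.2) in the IR library, against 64.3 (61.7 to 67.0) for NC. Their shares hardly moved, with Spry2 at 68.0% and 69.0% of the Sprouty reads, and for each of the 3 pairs of Sprouty genes the interval of the change in read ratio held 1.

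The SPRED genes differed from each other. Spred1, whose human counterpart is mutated in Legius syndrome, had 479 reads in IR and 664 in NC, or 13.7 CPM (12.5 to 15.02) and 18.2 CPM (16.9 to 19.7), a log2 ratio of -0.41 (interval -0.58 to -0.24). Spred2 had 1593 and 1663 reads, or 45.7 CPM in each library, a log2 ratio of 0.00039 (interval -0.10 to 0.10). Spred2 was thus the most even of the 10 genes, and its interval in folds ran from 0.933 to 1.07. The Spred1 share of the SPRED reads was 23.1% in IR (21.3 to 24.99) and 28.5% in NC (26.7 to 30.4). Of the 8 pairs of relatives compared over the 4 families, 3 had an interval of the change that held 1, the Sprouty pairs. No share over other gene pairs was computed, and since the counting interval of a single well-covered gene mostly excludes 1, the number of pairs is not read as a result.

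Levels of different genes were compared as CPM per kilobase of annotated exon sequence. In NC the order ran from Etv5 (48.7 CPM per kb) through Etv4 (44.9), Dusp6 (42.8), Spry2 (21.3), Dusp5 (20.2), Dusp4 (19.99), Spred2 (9.88), Spry4 (3.23) and Spred1 (2.69) to Spry1 (1.59). Neighbours whose counting intervals overlapped in NC were Etv4 and Dusp6, Spry2 and Dusp5, and Dusp5 and Dusp4. In IR Etv4 led with 55.8 CPM per kb, followed by Dusp5 (37.8), Etv5 (37.4), Dusp6 (31.8), Dusp4 (24.6), Spry2 (18.1), Spred2 (9.89), Spry4 (2.95), Spred1 (2.02) and Spry1 (1.30), and there the intervals of Dusp5 and Etv5 overlapped. Dusp5 thus moved from the fifth place to the second in level and Dusp6 from the third to the fourth, while the order of the 4 scarcest genes was the same in both libraries.

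**Figure D3:**
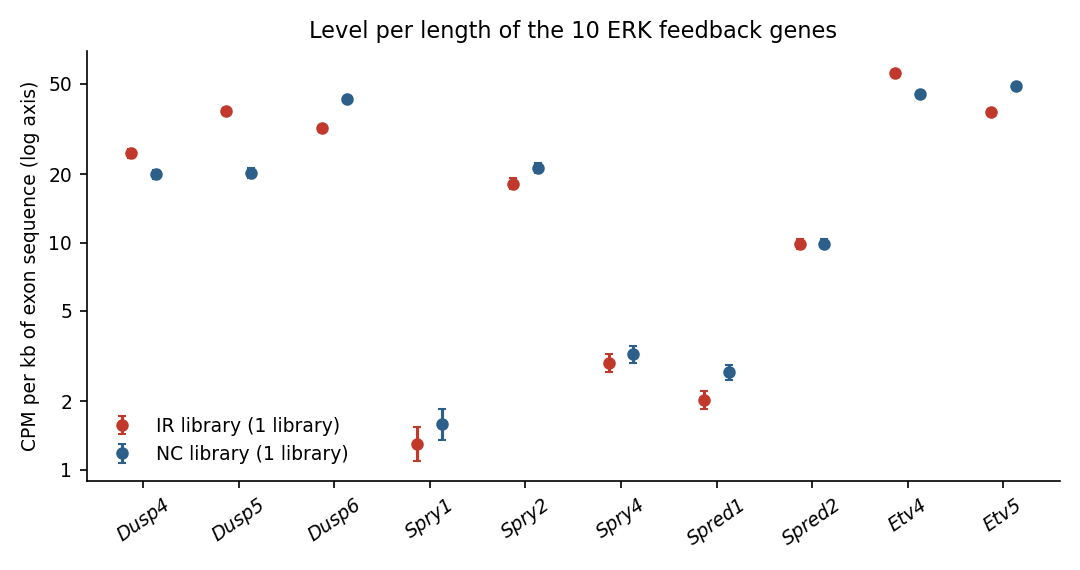
Level of each of the 10 genes in CPM per kilobase of exon sequence (y axis, log scale) in the IR library (red) and the NC library (blue), 1 library each, with 95% Poisson intervals as bars. The ETV and DUSP genes lie near or above 20 CPM per kb in both libraries, Spry1, Spry4 and Spred1 below 4, and the widest gap between the libraries is that of Dusp5.

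**Figure D4:**
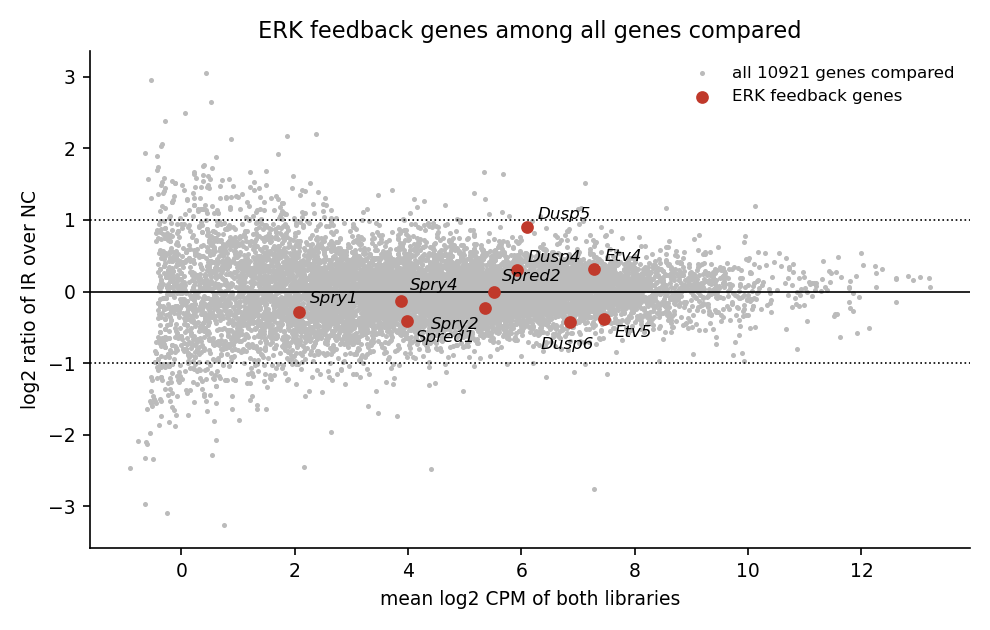
Log2 ratio of IR over NC (y axis) against the mean log2 CPM of both libraries (x axis) for all 10921 genes compared (grey) and the 10 feedback genes (red), with dotted lines at 2-fold. Dusp5, at 0.90, lies at the upper edge of genes of its level, and the other 9 lie within the cloud.

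Other genes of the pathway were described from lists chosen with earlier results of these data known. Shares over all genes are given beside the list counts. They are a low measure for well-covered lists, since 74.3% of genes with at least 1000 reads had an interval excluding 1 in either direction. The 7 other MAP kinase phosphatases had ratios above 1 (6 of 7 with scaling by total counts, where Dusp10 fell to -0.0012), and for 5 of them the interval lay above 1, against 31.2% of all genes. Dusp2, a nuclear phosphatase of activated cells, counted 830 and 563 reads (log2 ratio of 0.62, interval 0.47 to 0.78) and Dusp9 3166 and 2339 reads (0.50). Dusp7, a cytoplasmic relative of Dusp6, had 1648 and 1610 reads (0.10, interval -0.0039 to 0.20), and Dusp10, which acts on JNK and p38, 630 and 646 reads (0.03, interval -0.13 to 0.19). The median of these 7 genes was 0.34. Dusp6 was thus the single gene with a ratio below 1 among these 10 listed phosphatases, members included, apart from Dusp10 under total counts. This depends on which genes were listed. Dusp3, a phosphatase left out of the list but held in the MAPK annotation described below, had 3114 and 3260 reads (-0.0037, interval -0.07 to 0.07). By length Dusp9 reached 33.3 CPM per kb in IR and 23.6 in NC, close to the levels of Dusp5 and Dusp4.

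Of the other Sprouty and SPRED genes and their partners, 7 of 8 were measured, Spry3 not being listed in the table. Their median log2 ratio was -0.05 (0.02 centred on length and GC). Intervals lay above 1 for 2 genes and below 1 for 1, against 31.2% and 32.4% of all genes. Cav1 (caveolin-1, a membrane scaffold that binds Sprouty proteins) had 1583 and 1041 reads (0.67, interval 0.55 to 0.78) and Cbl (a ubiquitin ligase bound by Sprouty) 211 and 166 reads (0.40). Nf1, the neurofibromin that SPRED proteins recruit, had 500 and 588 reads (-0.17, interval -0.35 to 0.0030). Tesk1, a kinase that binds Sprouty, had 2573 and 3040 reads (-0.18, and -0.09 centred on length and GC), with 32.1% of its exon sequence overlapping Cd72.

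Of the other ETS factors 9 of 10 were compared, with Gabpa below the filter at 0 and 2 reads. The interval lay above 1 for 6 and below 1 for 1, against 31.2% and 32.4% of all genes, and the median was 0.22. Etv1, the third PEA3 gene, had 523 and 350 reads (log2 ratio 0.64, interval 0.44 to 0.84), which sets it on the side of Etv4. By length Etv1 was scarce beside its relatives, at 1.13 CPM per kb in IR and 0.723 in NC. Ets1 had a log2 ratio of 0.41, the ERK-responsive Elk4 one of -0.08 (interval -0.30 to 0.15), and the repressor Etv3 one of -0.50 from 423 and 625 reads.

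The cascade itself, from RAS to ERK and its downstream kinases, was covered by 23 genes. Of these 13 had intervals below 1 and 4 above, against 32.4% and 31.2% of all genes. Among all genes with at least 1000 reads, 74.3% had an interval excluding 1 in either direction. The median log2 ratio was -0.13. Ptpn11 (the phosphatase SHP2, which relays receptor signals to RAS) counted 2515 and 4272 reads (-0.70, interval -0.77 to -0.63), and Frs2, the adaptor of fibroblast growth factor receptors, 185 and 299 reads (-0.62). The kinase gene Braf, with 262 and 160 reads (0.77, interval 0.48 to 1.07), and Nras, with 1121 and 805 reads (0.54), were highest. Among 10 compared growth factor receptors 5 had intervals below 1 and 2 above, against the same 32.4% and 31.2% of all genes. Their median was -0.20, but -0.06 with ratios centred on the trend over length and GC and -0.13 with no filter. Igf1r (0.51) and Egfr (0.45, from 215 and 164 reads) were highest, and Pdgfrb (-0.42) and Erbb3 (-0.99, from 107 and 224 reads) lowest.

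Growth factor ligands had no common direction, with 4 of 11 intervals above 1 and 4 below, close to the 31.2% and 32.4% of all genes. Their median was 0.15, and -0.12 with a filter of 200 reads. Fgf10, a mesenchymal growth factor of the lung, counted 113 and 66 reads (0.82, interval 0.39 to 1.30), and the EGF receptor ligand Ereg 1254 and 777 reads (0.75). Pdgfa (-0.29) and Fgf2 (-0.79, from 23 and 43 reads) were lowest, and both overlap other genes, over 26.1% and 13.2% of their exon sequence. Fgf5, Fgf18, Btc and Hgf are not listed in the table, and Fgf1 and Fgf9 fell below the filter.

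Of 17 other genes that ERK switches on 15 were compared. Plaur is not listed in the table, and Epha4 fell below the filter at 0 and 11 reads. Intervals lay above 1 for 12 of the 15 and below 1 for 1, against 31.2% and 32.4% of all genes. Most of the 15 were well covered, and at 1000 reads or more 74.3% of genes had an interval excluding 1 in either direction. At least 1.5-fold higher were 6 of them, against 6.09% of all genes, and the median log2 ratio was 0.43. Egr2 (305 and 161 reads, 0.98) and Myc (25788 and 15511 reads, 0.80, interval 0.77 to 0.82) were highest. Ccnd1, the cyclin D1 gene and a common readout of ERK, had 31037 and 34513 reads (-0.09, interval -0.11 to -0.07, and -0.03 with ratios centred on length and GC) with 23.4% exon overlap, and Egr3 47 and 63 reads (-0.35, interval -0.94 to 0.21). Whether the feedback genes as a group differ from these output genes was not tested, since genes are not replicates.

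Other inhibitors of the pathway showed no common direction, with 5 of 15 intervals above 1 and 6 below, against 31.2% and 32.4% of all genes. Their median was 0.01 (-0.02 with total counts, -0.01 with no filter). Flrt3 (0.42, from 34 and 26 reads) and the RAS GTPase-activating protein gene Rasa2 (0.39) were highest, and Lrig1, an inhibitor of EGF receptors (9653 and 13091 reads, -0.38, and -0.24 centred on length and GC), and Rasa1 (-0.42) lowest. The MAPK pathway annotation of the table itself holds 219 genes, Dusp4, Dusp5 and Dusp6 among them. Of the other 216, 181 were compared, with 60 intervals above 1 and 66 below, against 31.2% and 32.4% of all genes. The median of the 181 was -0.0037, which lay between -0.03 and 0.02 under the alternatives. Among them 1 gene was at least 2-fold higher, Ptpn7, a phosphatase of ERK in blood cells, with 68 and 31 reads (1.14, interval 0.56 to 1.86), and none was 2-fold lower.

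**Figure D5:**
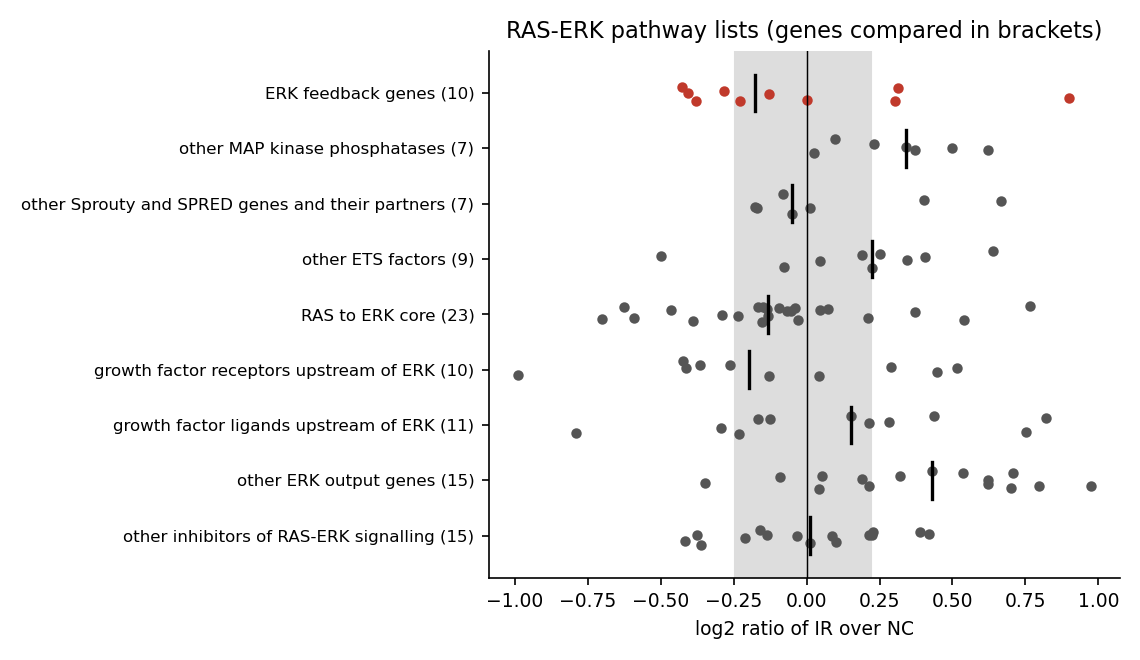
Log2 ratio of IR over NC (x axis) for each compared gene (points) of the 10 feedback genes (red) and 8 further lists (grey), with list medians as black bars and the middle 50% of all genes as a grey band; vertical scatter is for display. Other MAP kinase phosphatases (median 0.34) and other ERK output genes (median 0.43) lie mostly to the right, and the 10 feedback genes spread to both sides (median -0.18).

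Genes with a CArG box in the RefSeq window, the feature seen at Dusp5, are described here as a class. The class includes Dusp5 and was formed after the data were seen. Whether CArG boxes go with the ratios was not tested. The 120 compared genes with at least 1 box had a median log2 ratio of 0.04, and 7.5% of them were at least 1.5-fold higher, against -0.0040 and 5.96% for the 8102 genes without. Srf, the gene of serum response factor itself, was the other compared gene with 2 boxes, and it had 3696 and 3716 reads (0.05, interval -0.01 to 0.12).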

How the data were processed

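Total RNA depleted of ribosomal RNA was sequenced as paired reads, per the labels' protocols. The submitters' processing notes name cutadapt 1.9.3, HISAT2, HTSeq 0.9.1, edgeR and the build mm10, without their roles. The values used are raw read counts per gene, deposited by the authors, per the file headers; 2 further value columns were not used.

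Library sizes were corrected by TMM in edgeR 4.0.16 (R 4.3.3), with factors of 0.991 for IR and 1.01 for NC. Log2 ratios are differences of log2 CPM with a prior count of 2, for genes with at least 50 reads over both libraries. Ratio intervals are exact 95% binomial (Clopper-Pearson) intervals, CPM intervals are Poisson intervals, and intervals of read ratios between genes are log-normal. A gene was called 2-fold different when it lay at or past 2-fold and its counting interval left out a ratio of 1. PCR copies are not independent molecules, so these intervals, which cover counting error only, may be too narrow.

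Positions, exon lengths and overlaps came from GENCODE vM21 (GRCm38), which held 14584 of the 14694 gene identifiers (99.3%), and promoter windows from RefSeq on GRCm38.p6. The CArG search and the 1000-read class were added after the data were seen. All 10 members and up to 2 highest and 2 lowest genes of each list were named, with any at least 2-fold different. From the MAPK annotation of the table only genes at least 2-fold different were named. Genes outside this rule (markers, Dusp3, Dusp9 and Etv1 levels by length, Srf) were chosen after their values were seen. Members and lists were chosen with earlier results of these data known.

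On simulated counts for IR over NC (14694 genes, 10919 compared, counting noise only), 100% of genes changed 3-fold or 4-fold were found, and 1 of 10719 unchanged genes was called.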

Additional observations from a re-analysis of the deposited data

How the results depend on the processing

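The alternatives were 3 other scalings (total counts, DESeq2 1.42.0 size factors, upper quartile), prior counts of 0.5 and 5, a read minimum of 0 or 200, NC thinned to the depth of IR, ratios centred on the expression trend or on the trend over length and GC, omission of genes with at least 10% exon overlap, and a 1.5-fold rule. The 1.5-fold rule gave 1 member higher (Dusp5) in place of 0 and left the count of lower members at 0. Under the other settings no member changed its side of a ratio of 1 by its counting interval. Dusp5 ranged from 0.87 to 0.93, Dusp6 from -0.46 to -0.40, Etv4 from 0.29 to 0.34, Etv5 from -0.40 to -0.30 and the median of the members from -0.21 to -0.14. Of the other genes named, Dusp7 had its interval above 1 with upper quartile scaling (0.12) and both trends (0.11 and 0.15), and Nf1 below 1 with total counts (-0.20) and thinning (-0.18). Centring on length and GC moved Ccnd1 to -0.03, Tesk1 to -0.09, Lrig1 to -0.24 and the median of the growth factor receptors to -0.06. The median of the ligands turned to -0.12 with 200 reads, where fewer genes are compared. Leaving out overlapping genes removes Dusp5 and Spry1 and so gives no value for them. No paired analysis was possible because the groups share 1 replicate number, and no replicate could be left out. Depth limits the statements on Spry1 and Spry4, and the lack of replicates those on every gene.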
